A study of Mus musculus with 8 samples.

Results

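DNA methylation in liver was compared between F1 hybrid mice and the inbred mice of the 2 strains that were crossed to make them. The 4 parents were a female and a male C57BL/6J (B6) mouse and a female and a male DBA/2J (DBA) mouse. The 4 F1 mice were a female and a male BXD mouse, whose mother was B6 and father DBA, and a female and a male DXB mouse, from the reciprocal cross. All 8 mice of the series were used, 1 library each, made from liver collected at 16 weeks of age after a 16 hour fast, with no treatment named. The assay was reduced representation bisulfite sequencing (RRBS), in which DNA is cut with the enzyme MspI at CCGG and unmethylated cytosines are converted. The members were autosomal CGs read at least 10 times in every mouse, with the reads of all allele classes added and each strand of a CG taken as a site. They numbered 173739 of the 1426047 autosomal CGs with a read in any mouse. A methylation level is the percentage of reads that kept a cytosine, and differences between levels are in percentage points.

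In mammals most methylation sits on cytosines followed by guanine, and it is copied to the new strand when DNA is replicated. Where a sequence difference nearby sets the level of each chromosome on its own, an F1 mouse is expected midway between its parents. At imprinted genes the level of a chromosome depends on which parent transmitted it, so inbred and F1 mice alike carry a methylated and an unmethylated copy at the control regions.

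The libraries differed in ways that bear on every comparison below. Total cytosine calls ran from 200744653 to 845527087 per library, and the median reads per tested CG from 34 in the DBA female to 164 in the BXD male. Counted from an MspI site, covered CGs reached 100 bases in both female parents and in the BXD male, 76 bases in both male parents, and 50 bases in the remaining 3 F1 mice, so read length and generation were nearly confounded. Levels of the 2 male parents correlated with each other at r = 0.972, and those of the 2 female parents at 0.977. Within a strain, r was 0.972 between the B6 female and male and 0.965 between the DBA female and male (across 173739 CGs, as a description). In the library labelled B6 male, 83.9% of allele-sorted autosomal cytosine calls carried B6 tags, against 99.7% in the B6 female. At least 10% of the tags were DBA in 1410 of 6107 windows of 100 kb in the B6 male. The mid-parent level there rests in part on DBA sequence for a mouse labelled B6. A batch cannot be told apart from the generation where the result rests on all mice, and the BXD male against the female parents, the 3 libraries that reached 100 bases, is given beside the median position, the clusters, and the genes with the smallest adjusted p or of the lists. These mice are single animals of each sex and strain, so the 2 mice of a strain differ in sex as well.

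The windows that the results turn on are printed here from the mouse genome build NCBIM37 (mm9), forward strand, 5′ to 3′, with the tested CGs in capitals. The first holds the CG with the only called mid-parent deviation, the next 2 hold CGs at which every F1 mouse was near B6, and the last 3 hold CGs at which every F1 mouse lay outside the range of the parents.
chr9:123834228-123834288: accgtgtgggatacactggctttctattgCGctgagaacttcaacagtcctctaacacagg
chr5:77431643-77431698, upstream of Arl9: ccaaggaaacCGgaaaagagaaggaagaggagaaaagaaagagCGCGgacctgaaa
chr17:32733543-32733841: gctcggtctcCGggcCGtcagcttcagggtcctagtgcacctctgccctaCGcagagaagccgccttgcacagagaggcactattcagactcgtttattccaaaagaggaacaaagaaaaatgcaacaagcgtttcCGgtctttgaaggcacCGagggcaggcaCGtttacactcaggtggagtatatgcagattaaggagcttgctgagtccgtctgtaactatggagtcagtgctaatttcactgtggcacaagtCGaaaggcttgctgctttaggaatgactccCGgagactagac
chr1:7277950-7278007: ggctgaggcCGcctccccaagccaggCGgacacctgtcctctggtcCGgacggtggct
chr4:154498226-154498266, in an intron of Morn1: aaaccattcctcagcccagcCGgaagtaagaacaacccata
chr17:23747680-23747720, in a coding exon of Zscan10: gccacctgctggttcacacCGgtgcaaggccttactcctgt

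Averaged over all tested CGs with equal weight, the F1 mice and the parents differed by less than the spread between mice. The mean was 43.1% ± 0.516 in F1 mice and 43.4% ± 0.413 in parents (SD, n = 4 each), a difference of -0.291 points (two-sided exact permutation test, p = 0.429; the smallest p that 4 against 4 mice allow is 0.0286). At the 72920 CGs that belong to the MspI site where a read starts, the difference was -0.902 points (exact permutation p = 0.343), and at the 100819 other CGs it was 0.15 points (exact permutation p = 0.6). The direction also turned when the reads of all CGs were added instead of averaging over CGs, with F1 mice 7.26 points above parents (exact permutation p = 0.0857).

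Where the parental strains differed, F1 mice sat close to the midpoint. Both B6 parents were more than 30 points from both DBA parents at 498 CGs, 0.287% of those tested, with B6 higher at 436 and DBA higher at 62. Leaving out 1 parent raised the 498 to 1136 (B6 female), 1000 (B6 male), 1239 (DBA female) or 1147 (DBA male). The position of each F1 mouse between the strains was scaled so that the mean of the DBA parents is 0 and the mean of the B6 parents is 1. The median position was 0.526 in the BXD female, 0.515 in the BXD male, 0.523 in the DXB female and 0.521 in the DXB male. The 4 F1 mice thus had a mean of 0.521 ± 0.00476 (SD, n = 4). That SD leaves out the spread between parents, whose means set the scale for all 4 mice. With 1 parent left out, the median position over the larger sets of CGs that then differed ran from 0.374 to 0.727. Since the CGs changed too, these values do not measure the spread between parents at the 498 CGs. BXD and DXB positions differed by a median of 0.00408 over these CGs, with most single CGs from -0.215 to 0.194.

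**Figure D1:**
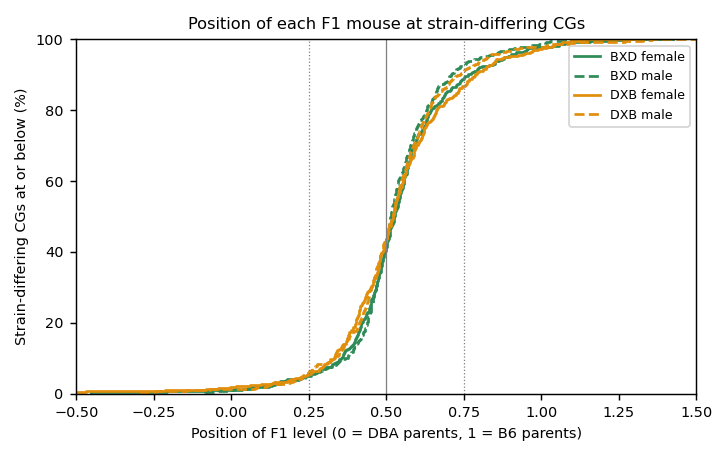
Cumulative percentage of the 498 strain-differing CGs (y axis) at or below a given position of the F1 level (x axis, 0 at the mean of the DBA parents and 1 at the mean of the B6 parents), with a line for each F1 mouse and vertical lines at 0.25, 0.5 and 0.75. All 4 curves are steepest near the midpoint, with medians between 0.515 and 0.526.

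All 4 F1 mice fell between 0.25 and 0.75 at 334 of the 498 CGs (67.1%). A strain was at 2% or less at 233 of the 498, of which 192 were between and 0 near either strain, while at the other 265 CGs 142 were between, 10 near B6 and 6 near DBA. The genome build derives from B6, and whether each of these sites is a CG in the DBA sequence too was not tested. A site without a CG in DBA would read near 0% in DBA and midway in F1 mice. At 148 CGs the 4 mice were split over these bounds, and at the remaining 16 all 4 lay near the same strain. At no strain-differing CG did all F1 mice pass above or below all parents. The median absolute distance of the F1 mean from the mid-parent level was 4.08 points, at CGs where the strains differed by a median of 73.5 points. Positions were 0.519 ± 0.00699 where B6 was higher and 0.555 ± 0.0389 where DBA was higher (SD over 4 F1 mice). They were 0.537 ± 0.0187 in promoters, 0.558 ± 0.0141 in coding exons, 0.515 ± 0.00996 in introns and 0.521 ± 0.00429 between genes. In the libraries that reached 100 bases, the BXD male had a median position of 0.503 between the 2 female parents. With 1 parent left out, the strain-differing CGs were chosen anew. The median position was then 0.374 over 1136 CGs without the B6 female and 0.498 over 1000 without the B6 male. It was 0.727 over 1239 CGs without the DBA female and 0.575 over 1147 without the DBA male. With the female parents alone it was 0.554 over 2208 CGs.

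Reads sorted to a chromosome by a nearby sequence difference gave the levels behind these positions. At 260 strain-differing CGs with at least 20 sorted reads of each chromosome over the 4 F1 mice, the B6 chromosome differed from the B6 parents by a median of -0.703 points and the DBA chromosome from the DBA parents by 0 points. The B6 chromosome was within 10 points of its strain at 220 of these CGs and the DBA chromosome at 241. Weighting the chromosomes equally put the median position at 0.496, against 0.517 with all reads.

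By gene, 268 of the 498 CGs lay in or within 2 kb before 216 protein-coding genes, and 15 genes held at least 3. In these 15 genes the mean deviation of F1 from mid-parent over the strain-differing CGs ranged from -8.6 to 18.6 points with a median of 1.69, and 13 lay within 10 points. Aox3l1, an aldehyde oxidase gene, held the most, 6 CGs in an intron. Its mean levels were 95.8% and 89.5% in the B6 female and male, 46.1% and 36.5% in the DBA female and male, 68.5% and 66.5% in the BXD female and male, and 66.4% and 73.2% in the DXB female and male. By these means the F1 mice of Aox3l1 lay between the strains without overlap, 1.69 points from mid-parent. Its single CGs lay on both sides of the midpoint, with mean F1 positions from 0.269 to 0.725. Plac8 had the opposite strain direction over 4 intronic CGs, with 11.4% and 16.8% in B6, 86.3% and 90.9% in DBA, and 46.6%, 51.5%, 51.2% and 57.6% in the BXD female, BXD male, DXB female and DXB male, a deviation of 0.368 points. The 2 genes beyond 10 points were Arl9, with 4 CGs and a deviation of 16.8 points, and Wnt3a, which encodes a Wnt ligand, with 4 coding-exon CGs and 18.6 points. At Wnt3a the DBA female was at 38% and the DBA male at 0%, a wide spread between the 2 mice that set the mid-parent level.

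At 16 CGs every F1 mouse was near the same strain, 10 near B6 (2.01% of the strain-differing CGs) and 6 near DBA (1.2%). No CG near B6 had F1 reads sorted to a chromosome, so the level of each chromosome there is not known. Of the CGs near DBA, only those at Evpl and at chromosome 9, 123834258, both given below, had such reads. Near meant a position of at least 0.75 or at most 0.25. The lowest F1 position was 0.752 at the CG just inside the bound for B6 and 0.744 at the one just outside, and the highest was 0.249 just inside and 0.278 just outside the bound for DBA. The CGs near B6 fell in few places, with 3 in the chromosome 17 window and 2 each at Arl9 and Sfi1/Drg1. With strains called different by their means instead of by both mice, 107 of 1162 CGs were near B6 and 74 near DBA. With a strain difference above 50 points the counts were 0 and 1 of 324. Leaving out a parent also changed the set of strain-differing CGs. Without the DBA female 401 of 1239 CGs were near B6, and without the DBA male 115 of 1147. Without the B6 female 327 of 1136 were near DBA. The other counts moved less. Near B6 were 29 of 1136 without the B6 female, 28 of 1000 without the B6 male and 19 of 498 without the BXD male. Near DBA were 31 of 1000 without the B6 male and 13 of 1147 without the DBA male. They were 10 of 498 without the BXD female, and also without the BXD male.

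Arl9 encodes a small GTPase of the ARF-like family. Its CG at chromosome 5, 77431688, 1392 bp before the gene and part of the window printed above, was at 94.4% and 97.6% in B6, 47.8% and 28.6% in DBA, and 90.4%, 87.7%, 87.6% and 84.8% in the BXD female, BXD male, DXB female and DXB male. The other Arl9 CG, at 77432079, was at 89.2% and 74.6% in B6, 32.8% and 28.3% in DBA, and 76.7%, 82.8%, 71.2% and 72.6% in the same order of F1 mice. The F1 mice were just below both B6 mice at the first CG, overlapped them at the second, and were far above both DBA mice at each.

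Sfi1, a centrosomal protein gene, and Drg1, a GTP-binding protein gene, shared 2 near-B6 CGs on chromosome 11 that lay in a promoter. The CG at 3093512 was at 93.5% and 66.5% in B6, 20.7% and 12.3% in DBA, and 82.2%, 79.4%, 78.2% and 71.4% in the BXD female, BXD male, DXB female and DXB male. All 4 F1 mice lay within the range of the B6 mice. Read numbers there ran from 340 to 5478 per mouse. At Ciita, the transactivator of MHC class II genes, a coding-exon CG at chromosome 16, 10524034, was at 91.8% and 70% in B6, 33.3% and 30.4% in DBA, and between 68.8% and 84.6% in F1 mice. The chromosome 17 window, 24557 to 24671 bp from Gm9705 at its 3 near-B6 CGs, had F1 levels of 77.1% to 97.1% over these CGs. B6 was at 75% to 92.3% and DBA at 27.3% to 59.3%.

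Among the CGs near DBA, 2 lay in or before a gene. In the promoter of Amotl2, an angiomotin-like gene, the CG at chromosome 9, 102630778, was at 84.2% and 88.7% in B6, 50.5% and 54.2% in DBA, and 60%, 56.6%, 50.8% and 46% in the BXD female, BXD male, DXB female and DXB male. In an intron of Evpl, the envoplakin gene of the epidermal envelope, the CG at chromosome 11, 116094097, was at 34.6% and 21.1% in B6, 70% and 75% in DBA, and 66.7% to 81.8% in F1 mice, with only 10 to 68 reads per mouse. Of its sorted F1 reads, the 31 from the B6 chromosome were 54.8% methylated and the 36 from the DBA chromosome 86.1%.

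**Figure D2:**
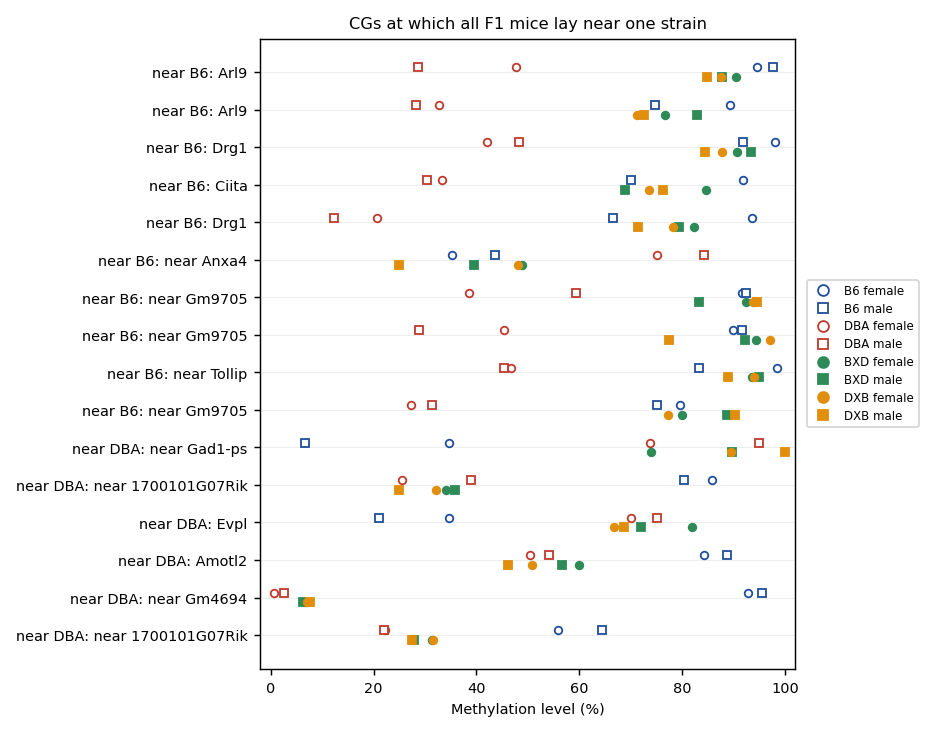
Methylation level in percent (x axis) of every mouse at the 16 CGs where all F1 mice lay near the same strain, each row a CG named by its gene or, with the word near before it, the closest gene. Open symbols are parents and filled symbols F1 mice, circles females and squares males; the filled symbols fall with the open blue (B6) or the open red (DBA) symbols.

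The CG at chromosome 9, 123834258, 2602 bp from Gm4694, was the only one called for a deviation from mid-parent, and it was lower in F1 mice. It was at 92.7% and 95.5% in B6, 0.696% and 2.7% in DBA, and 6.75%, 6.24%, 6.99% and 7.6% in the BXD female, BXD male, DXB female and DXB male. The F1 mice lay just above DBA and far below B6. The fitted deviation was -40.4 points (SE 0.823, quasi-binomial model with dispersions shrunk by limma, adjusted p = 0.0193). With the dispersion kept at 1 or more, so that the error is never under counting error, the adjusted p was 0.0572, and with sex in the model, as a block of females and males, 0 CGs were called. Reads at this CG numbered 96 and 67 in the B6 female and male, 1149 in the DBA female and only 37 in the DBA male, and from 1026 to 1427 in F1 mice. Of 5062 sorted reads in F1 mice, the 330 from the B6 chromosome were 93.3% methylated and the 4732 from the DBA chromosome 0.803%. Their equal mean was 47.1%, against a mid-parent level of 47.9%. This CG is among those counted near DBA by all reads. Over all 498 strain-differing CGs, the position and the B6 share of parental reads, scaled to library depth, had r = 0.0392 (across CGs that share libraries, as a description). That share was 0.095 at this CG, outside the 0.206 to 0.78 that holds most of the 498, so r does not describe this CG.

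Over the whole table the quasi-binomial test called 0 CGs higher (0%) and 1 lower (0.000576%) of 173739 in F1 mice, with 17720 at an unadjusted p under 0.05. By limma on the percentages the counts were 0 and 0, with 13299 at an unadjusted p under 0.05. Without the MspI-site CGs the quasi-binomial test called 190 higher and 30 lower, with a median absolute deviation of 1.08 points, and with the dispersion also at 1 or more it called 0. Leaving out the BXD male gave 8 higher and 19 lower, and leaving out the B6 female 9 higher; the remaining single mice gave 0 or 1.

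A small share of CGs had every F1 mouse outside the range of the parents, mostly by small gaps. All F1 mice were above all parents at 3223 CGs (1.86%) and below them at 3047 (1.75%). Of the 70 assignments of 4 and 4 mice, 1 places all F1 mice above and 1 places them all below. Were the mice exchangeable and no levels tied, each share would thus be near 1 in 70. Ties, as between mice at 0%, lower the share, by an amount that was not tested. Without CGs at 2% or less in a strain, F1 mice were above at 2684 and below at 3013 of 121419 CGs. The shares above and below were 2.43% and 2.6% at CGs of an MspI site and 1.44% and 1.14% at other CGs. With any single mouse left out the total of 6270 rose to between 9556 and 14071, since fewer mice had to be separated. The gap between the nearest F1 mouse and the nearest parent exceeded 10 points at 74 CGs above (0.0426%) and 54 below (0.0311%). The values around that bound were 10.02 and 9.93 points above, and 10.04 and 9.96 points below. The CG of the MspI site made up 42% of all tested CGs, 73% of the 74 and 96.3% of the 54. Excluding it left 20 above and 2 below. The sets also differed in place, with 10.8% of the 74 and 51.9% of the 54 in promoters against 41.7% of all tested CGs. In the DBA male, reads at the 54 CGs were 3.87 times the median of the other libraries, against 0.391 times at the 74 and 0.604 times at all CGs. The part of MspI-site reads and of this library in the counts was not tested.

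The widest gap, 28.4 points, was at chromosome 1, 7277960, 114253 bp from Pcmtd1 and not in an MspI site. Its levels were 25% and 37.5% in B6, 8.57% and 9.09% in DBA, and 81.4%, 65.9%, 81.5% and 73.3% in the BXD female, BXD male, DXB female and DXB male. Every F1 mouse was well above every parent there, as the choice of the CG requires. The 2 tested CGs within 100 bp deviated by 4.42 points on average.

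Among CGs in genes, the widest gaps above the parents were at Sept9, Sdk1, Wwox, Abhd8, Stx2, Zscan10, Nedd4, Kcna3, Atp8b3 and Ucp2, all at MspI sites. Ucp2 encodes a mitochondrial uncoupling protein, and its promoter CG at chromosome 7, 107642367, was at 24.5% and 26% in B6, 25% and 30.4% in DBA, and 47.8%, 44.4%, 52.2% and 46% in the BXD female, BXD male, DXB female and DXB male. The lowest F1 mouse at Ucp2 stood 14 points above the highest parent. Zscan10, a zinc finger gene of pluripotent cells, had 15.7% to 20% in parents and 34.8% to 63.6% in F1 mice at its CG printed above, with 11 to 70 reads, and its 2 neighbours within 100 bp deviated by 0.542 points. Nedd4, a ubiquitin ligase gene, had 17.6% to 27.3% in parents and 42% to 52.5% in F1 mice. Near 2 of these CGs the neighbours deviated as far: by 31.2 points at Sdk1, an adhesion protein gene with 2 neighbours, and by 26.7 points at Stx2, a syntaxin gene with 1. At Sept9, a septin gene, the mean was 52.6% ± 7.7 in parents and 81.8% ± 6.25 in F1 mice (SD, n = 4).

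The widest gaps below the parents were at Morn1, Cspg5, Nkx2-2, Arid4a, Tuba8, Trim71, Brca1/Nbr1, Pole2, Tns1 and Zfp617/Zfp882, again all at MspI sites. The intronic Morn1 CG was at 91.2% and 86.2% in B6, 83.1% and 83.9% in DBA, and 53.8%, 58.4%, 45.5% and 36.2% in the BXD female, BXD male, DXB female and DXB male. That gap of 24.7 points was the widest in this direction. At Nkx2-2, a homeobox gene, parents were at 35.7% to 70.8% and F1 mice at 4.76% to 13.8%, while 3 neighbouring CGs deviated by -1.41 points. At the promoter shared by Brca1 and Nbr1, parents were at 27.8% to 46.2% and F1 mice at 4.17% to 10.7%, and the 2 neighbours deviated by 0.106 points. Trim71, an RNA-binding ubiquitin ligase gene, had 31.2% to 41.2% in parents and 4.44% to 14.2% in F1 mice, with its 8 neighbours at -1.21 points. At Tuba8, an alpha tubulin gene, the neighbour deviated by -8.74 points in the same direction. Below the parents by more than 10 points, only 2 CGs were not part of an MspI site. In an intron of Cacng2, a calcium channel subunit gene, that CG was at 76.6% and 80.7% in B6, 77.8% and 92.3% in DBA, and 52.8%, 62%, 25.9% and 37.5% in the BXD female, BXD male, DXB female and DXB male, and its 2 neighbours deviated by -12.2 points. The other lay 3366 bp from Crabp1, at 60.5% to 70.6% in parents and 33.3% to 50% in F1 mice, with 2 neighbours at -12.6 points.

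**Figure D3:**
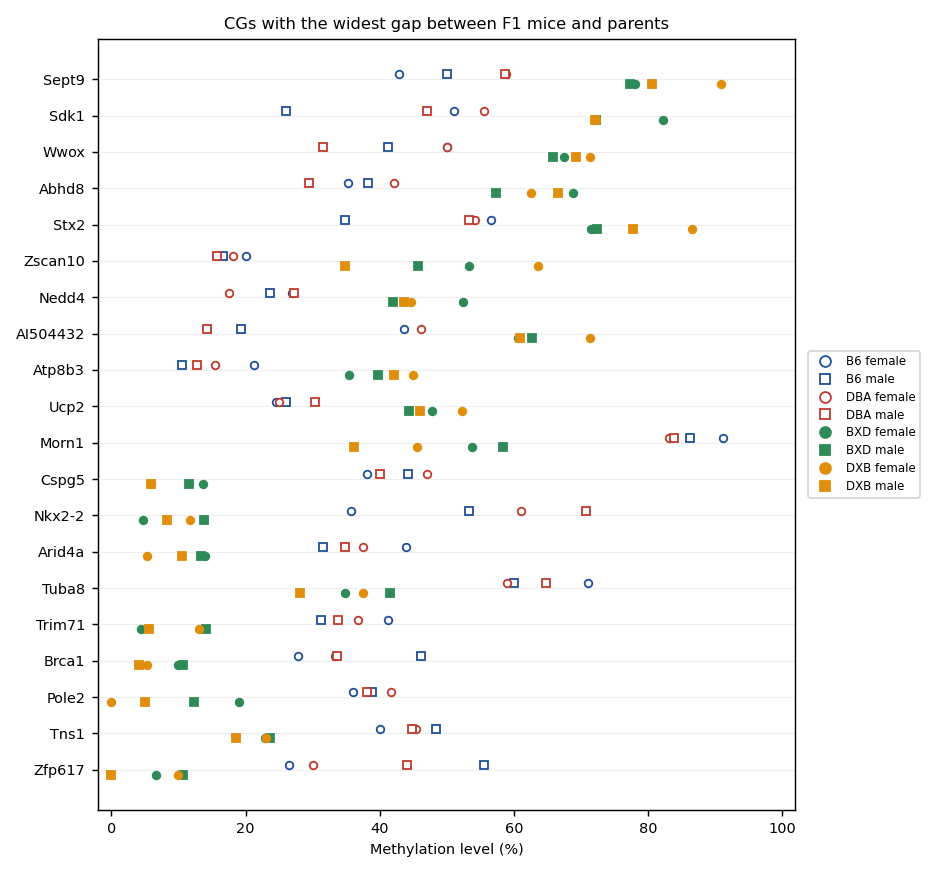
Methylation level in percent (x axis) of every mouse at the 10 CGs in genes with the widest gap above the parents (upper rows, Sept9 to Ucp2, with the Kcna3 CG named AI504432) and the 10 below (lower rows, Morn1 to Zfp617). Open symbols are parents and filled symbols F1 mice; the sets do not overlap in any row, as the choice of CGs requires.

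Neighbouring CGs were joined into 21486 clusters of at least 3 CGs with steps of at most 100 bp. No cluster passed limma at an adjusted p under 0.05 (0% in each direction), with 1497 at an unadjusted p under 0.05 and 0 calls by the quasi-binomial test. All F1 mice were above all parents in 295 clusters (1.37%) and below in 678 (3.16%). With a gap above 5 points the balance turned, to 32 above and 5 below. The cluster at chromosome 1, 7277960 to 7277997, which includes the CG of the widest gap above, itself had the widest gap of the clusters, 11.9 points, with 63% to 74.1% in parents and 86% to 91.4% in F1 mice (deviation 21.4 points, SE 2.63, limma adjusted p = 0.286). It holds 3 CGs and rests mostly on that CG, which deviated by 55.5 points, while its other 2 deviated by 4.42 points on average. The chromosome 17 window, over 8 CGs, had 92.9% and 93.9% in B6, 45% and 51.4% in DBA, and 85.9% to 92.2% in F1 mice (deviation 19.1 points, limma adjusted p = 0.286). It reached an adjusted p of 0.00725 by limma when clusters needed at least 5 CGs, and chromosome 6, 3151534 to 3151577, reached 0.0388. At the chromosome 6 cluster the B6 female was at 88.8% and the B6 male at 56.5%. DBA was at 50% and 40.6% there, and F1 mice at 88.4% to 96.6%. A promoter cluster of Plagl1, an imprinted zinc finger gene, had 6.67% to 16.7% in parents and 25.7% to 36.6% in F1 mice (deviation 19.8 points, limma adjusted p = 0.424). Leaving out 1 mouse gave 18 calls without the B6 female, 29 without the DBA female, 16 without the BXD male and 0 without any other. Clusters in introns of C1s, a complement protease gene, and Pkhd1, the fibrocystin gene, had deviations of -12.5 and -11.4 points. In C1s the 2 DXB mice were at 67.3% and 66.7% and the 2 BXD mice at 88.3% and 88.6%, and the latter overlapped the parents, at 85.9% to 94.3%. The BXD male differed from the female parents by -0.208 points at C1s and -3.1 at Pkhd1, against 11 at Plagl1, 21.6 at the chromosome 1 cluster, 22.5 at the chromosome 17 window and 19 at the chromosome 6 cluster. At Pkhd1, Plagl1 and the chromosome 1 cluster every F1 mouse lay outside the range of the parents, which fixes the sign.

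By gene, 8901 genes held at least 5 tested CGs from 2 kb upstream to their end. No gene passed limma at an adjusted p under 0.05 (0% in each direction), with 579 at an unadjusted p under 0.05 and 0 calls by the quasi-binomial test. Leaving out 1 mouse gave 2 calls without the B6 female, 3 without the DBA female, 4 without the BXD male and 0 without any other. By limma the deviation of F1 from mid-parent was within 5 points in 96.7% of genes, with a median of -0.689 points. Most genes lay from -4.34 to 4.28 points by limma. By the quasi-binomial fit most lay from -7.61 to 17.1 points, with a median of -0.181. At an unadjusted p under 0.05, limma had 206 genes higher and 373 lower in F1 mice. The quasi-binomial test had the opposite balance, 580 higher and 193 lower. The cause of this difference was not tested. All F1 mice were above all parents in 114 genes (1.28%) and below in 309 (3.47%), nearly all by small gaps, since with a gap above 5 points 2 were above and 0 below. Nipsnap3a had the lower F1 mean with the smallest adjusted p, with 38.3% and 34.9% in B6, 41.6% and 44.6% in DBA, and 31.2%, 27.4%, 24.5% and 22.2% in the BXD female, BXD male, DXB female and DXB male. Its deviation was -13.5 points (SE 1.46, limma adjusted p = 0.103), and it was -12.6 points for the BXD male against the female parents. Trim66 was at 33.7% to 37.6% in parents and 43.5% to 45% in F1 mice (deviation 8.4 points, SE 0.94, limma adjusted p = 0.103). The Arl9 gene mean, over 5 CGs, deviated by 16.6 points with the F1 mice below B6 and far above DBA (SE 1.82, limma adjusted p = 0.103). The BXD male was above the female parents by 8.35 points at Trim66 and 18 at Arl9. At Nipsnap3a and Trim66 every F1 mouse lay outside the range of the parents, which fixes the sign of this difference.

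Of 38 imprinted genes listed, 23 were measured, and none passed limma after adjustment. All F1 mice were above all parents in 7 of 23 (Igf2r, Nnat, H13, Dlk1, Trappc9, Grb10 and Gnas), against 1.28% of all genes, and below in 0. The gaps to the nearest parent were small, from 0.265 points at Gnas and 0.363 at Dlk1 to 3.43 at Trappc9. The median deviation of the 23 was 2.44 points against -0.689 over all genes, and 15 were positive. The 23 are not all separate loci, since Zrsr1 lies within Commd1 and Nap1l5 within Herc3. These genes share CGs, and all of them count among the positive ones. Igf2r, the receptor that clears insulin-like growth factor 2, was at 22.4% and 17.1% in B6, 17.1% and 21.3% in DBA, and 40.5%, 24.4%, 45.2% and 42.9% in the BXD female, BXD male, DXB female and DXB male (deviation 18.8 points, SE 3.37, limma adjusted p = 0.632). The BXD male, the F1 library that reached 100 bases, was 4.71 points above the female parents, and the other 3 F1 mice were much higher. H13, a signal peptide peptidase gene, was at 66.4% and 58.6% in B6, 66% and 56.1% in DBA, and 69.7% to 73.9% in F1 mice, with both male parents lowest, and all 5 of its tested CGs were MspI-site CGs. Nnat, the neuronatin gene, was at 37.1% to 52.9% in parents and 54.6% to 66.1% in F1 mice. Both male parents were also lowest at Nnat, Dlk1, Trappc9 and Grb10, but not at Igf2r or Gnas. Against the female parents alone, the deviation fell from 12.1 to 7.22 points at Nnat and from 10.4 to 5.97 at H13. It fell from 10.1 to 4.5 at Dlk1, from 9.01 to 4.69 at Trappc9 and from 8.14 to 5.31 at Grb10. At Igf2r it was 18.8 and 18.5, and at Gnas 4.06 and 3.25. Over the 7 genes the BXD male was from 1.1 points (Gnas) to 8.05 points (Dlk1) above the female parents, a sign that the choice of these genes fixes. Nap1l5 deviated by 12.2 points over 5 CGs, but the parents ranged from 47.7% in the DBA female to 81.6% in the DBA male and overlapped the F1 mice. In the other direction Sgce, over 5 CGs, deviated by -15.8 points, with 36.6% to 60.1% in parents and 25.6% to 39.1% in F1 mice, which overlapped. For the BXD male against the female parents the difference was -6.03 points at Sgce and 16.7 at Nap1l5.

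**Figure D4:**
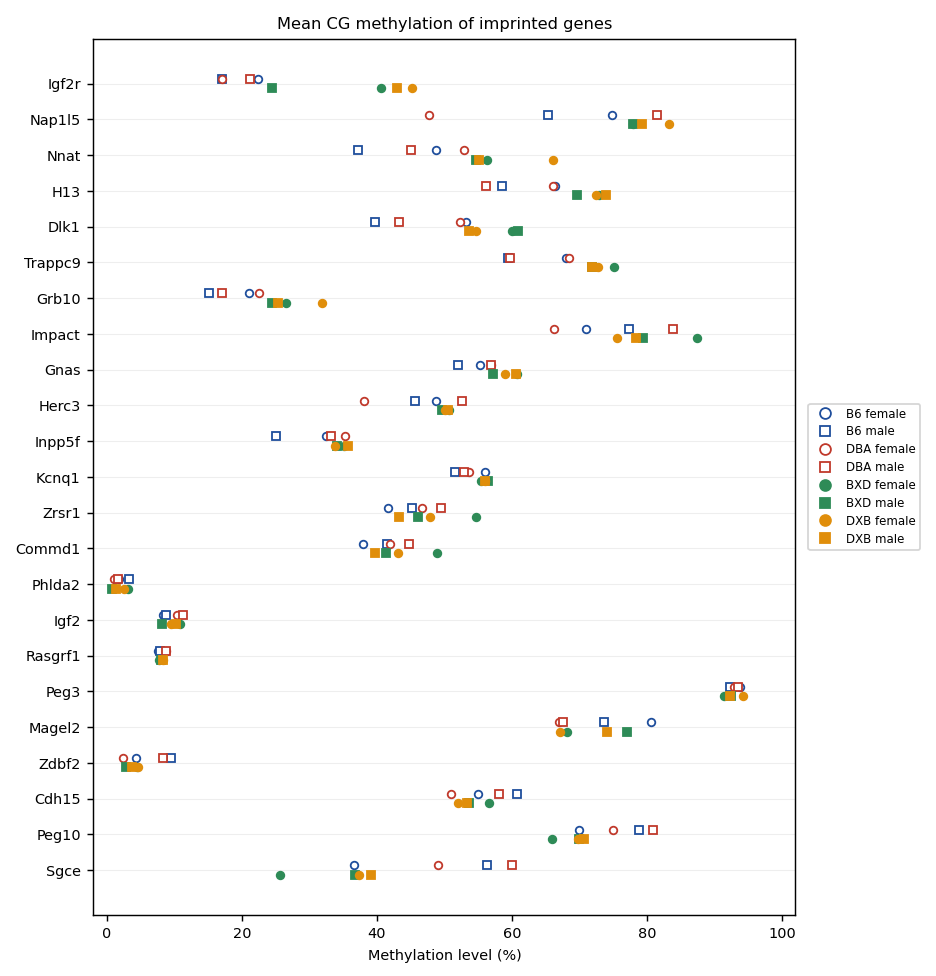
Mean methylation level in percent (x axis) over the tested CGs of each of the 23 measured imprinted genes, ordered by the deviation of F1 from mid-parent, with open symbols for parents and filled symbols for F1 mice. Igf2r is at the top with 3 F1 mice at 40.5% to 45.2% and the BXD male at 24.4%; Sgce is at the bottom.

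No member of the other lists passed limma after adjustment. Their counts outside the parents, with few genes each, stand against 1.28% above and 3.47% below over all genes. Of 13 measured genes of the methylation machinery, 0 were above and 1 below all parents. That gene was Tet1, a methylcytosine dioxygenase, at 15.5% to 18.8% in parents and 13% to 14.7% in F1 mice. Dnmt3a, the de novo methyltransferase, deviated by 4.93 points, and Mbd4, a glycosylase gene, by -3.54 points. Of 17 liver transcription factors only Nr5a2 was above all parents, and the largest deviations were -3.27 points at Foxa1 and 2.92 at Rxra. At Foxa1 the male parents were at 10.9% and 12.5% and the other mice at 2.97% to 6.46%. Of 15 growth and insulin signalling genes only Igf2r was above, and Igfbp3 and Insr deviated by -2.4 and -1.89 points. Of 17 circadian genes 2 were below, Per3 at -3.43 and Per1 at -2.59 points. The largest deviations in that list were -5.94 points at Tef, where the DBA male was at 20.3% and the other mice at 0.87% to 5.88%, and 5.91 at Cry2. Of 8 xenobiotic metabolism genes none lay outside the parents, with Cyp2u1 at -4.86 and Nqo1 at -2.86 points. Of 22 homeobox and developmental genes Hoxb3 was above and Pax9 and Nkx2-5 were below, and Gata6 deviated by 6.13, Lhx9 by 5.61 and Tbx5 by -5.38 points. At Tbx5 the DBA male was at 32.3% and the other mice at 15.5% to 20.5%. The gaps were small, at 0.00716 points for Hoxb3, 0.0387 for Nkx2-5, 0.0973 for Pax9, 0.276 for Per1, 0.393 for Nr5a2, 0.774 for Tet1 and 0.9 for Per3. For the BXD male against the female parents the difference was 1.48 points at Nr5a2, 1.08 at Hoxb3, -3.71 at Pax9 and -2.18 at Nkx2-5. For every gene counted above or below all parents, that count fixes the sign of this difference. The sign turned at Lhx9 (-0.394 points), Rxra (-1.83), Igfbp3 (1.12) and Nqo1 (0.523). The difference was smaller at Gata6 (1.52), Tbx5 (-1.99), Cry2 (1.1), Tef (-0.161), Per3 (-1.08), Per1 (-1.51), Dnmt3a (1.14), Foxa1 (-1.17) and Tet1 (-2.31). It was larger at Cyp2u1 (-12), Insr (-10.5) and Mbd4 (-3.93). Wdr63, Kcnip3 and Hspg2, among the genes picked by the study from these samples, deviated by -2.36, -1.79 and 0.965 points, and the BXD male differed from the female parents by -3.56, 0.055 and 0.338 points.

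Promoter CGs within 1000 bp of the starts of cell type markers were covered in few genes. Of 15 hepatocyte markers 2 were measured, F2 and Fgb, with a mean of 15.7% to 29.96% in parents and 23.6% to 34.7% in F1 mice (exact permutation p = 0.0857). Of 8 stellate markers 4 were measured, at 7.68% to 9.996% in parents and 7.92% to 10.4% in F1 mice, and of 7 cholangiocyte markers 2, at 35.1% to 47.3% and 36.8% to 47.7%. Of 13 leukocyte and 9 endothelial markers 0 were measured, so shares of these cells in the livers were not tested.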

How the data were processed

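RRBS data came from liver DNA of 8 mice in 4 strain groups (B6, DBA, BXD, DXB) of 2 mice. The authors aligned reads to mm9 with BS Seeker, kept unique alignments, and deposited, per cytosine and read class, counts of methylated and unmethylated reads and the methylation level as a fraction. The level was not used, since it follows from the counts. The authors' 4 tables of comparisons (levels, intervals, differences and p-values) were not used; 12 columns of these hold values of single mice.

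Counts of all read classes were added. CGs were matched to NCBIM37 and GENCODE vM1. Each CG was fitted by a quasi-binomial model (identity link, a level per strain group, dispersion shrunk by limma 3.58.1 in R 4.3.3), with the contrast of the mean of BXD and DXB against the mean of B6 and DBA, Benjamini-Hochberg adjusted, threshold 0.05. Mean levels of clusters and genes were fitted by limma with a variance trend. Single values were tested by two-sided exact permutation over 70 assignments. The models were also run on simulated data, and the outcome is not given here. Intervals were not given, since PCR reads are not independent molecules and depth covers counting error only.

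Named CGs were the 10 per direction with the widest gap, 1 per gene; clusters and genes were the 6 per direction with the smallest adjusted p, of which examples are given; genes near a strain were at most 8 per direction; for each list, the 2 to 4 with the largest deviation, with the genes counted outside the parents. The CGs outside genes, and the genes counted outside the parents in a list, were named after their values were seen. The members and lists were chosen with earlier results of these data known. Nothing says that the mice came from separate litters, so p-values measure the spread between these animals. Alternatives changed the read minimum, test, strands, covariates, definitions and libraries; those chosen after seeing the data were MspI sites, dispersion, the position in libraries reaching 100 bases, female parents alone (planned only for the count of strain-differing CGs), leaving out mice for that count, and DBA-tag windows for strain-differing CGs. A gene of the lists is not reported here. Python 3.11.15 was used.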

Additional observations from a re-analysis of the deposited data

Results flagged for a closer look

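Of 91 groups of 4 mice tested, 4 had a mouse far from the others by Dixon's ratio (gap over range, critical value 0.829), and chance alone flags about 1 in 20. At the Sdk1 CG the ratio was 0.987 among F1 mice, with the BXD female at 82.2% and the others at 72.1% to 72.2%. At the Stx2 CG it was 0.847 among parents, with the B6 male at 34.8% and the others at 53.3% to 56.7%. At the Tns1 CG it was 0.862 among F1 mice, with the DXB male at 18.5% and the others at 23% to 23.7%. In the cluster at chromosome 15, 62050664, it was 1 among parents, with the B6 female at 99.2% and the others at 100%.

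The deviation from mid-parent differed between BXD and DXB at 24 CGs (limma on the percentages, adjusted p under 0.05; 3 higher in BXD and 21 in DXB of 173739). The differences ranged from 2.94 to 23.7 points with a median of 6.26. At 20 of the 24 both mice of a cross were at 0%. At a CG of Irx4, a homeobox gene, both BXD mice were at 11.8% of 17 reads and 12.5% of 64 reads while the 6 other mice were at 0%. At a CG of Dmrt3 both DXB mice were at 8.33%, 1 of 12 reads in each, and the 6 other mice at 0%.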

How the results depend on the processing

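F1 mice lay outside all parents at 9804 CGs with at least 5 reads, 3079 with 20 and 1703 with 30; at 710, 128 and 4 with gaps above 5, 10 and 20 points; at 2597 without MspI-site CGs, 22 of them with a gap above 10 points; at 20213 against the female parents alone; and at 9556 to 14071 without 1 mouse. CGs called by the mid-parent test numbered 0 by limma, with at least 5 reads, with sex in the model, with the dispersion at least 1 (also without MspI-site CGs) and with female parents alone; 2 with at least 20 reads or without CGs at 2% or less in a strain; 220 without MspI-site CGs; and 0 to 27 without 1 mouse. Cluster calls were 2 with at least 5 CGs and 0 to 29 without 1 mouse, and gene calls 0 to 4 without 1 mouse; the other planned settings gave 0.

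Strain-differing CGs numbered 1162 by strain means, 905 and 324 beyond 20 and 50 points, 1001, 206 and 118 with at least 5, 20 and 30 reads, 2208 by female parents alone, and 498 to 1239 without 1 mouse. Of these, near B6 and near DBA were 107 and 74 by means, 30 and 19 beyond 20 points, 0 and 1 beyond 50 points, 25 and 16 with 5 reads, 191 and 55 by female parents alone. Near B6 were 5 with 20 reads, 4 with 30 reads, 5 without MspI-site CGs, and 4 or 18 with 0.8 or 0.667 as the bound; without 1 mouse, 11 to 401 were near B6 and 6 to 327 near DBA. The median position was 0.535 by means, 0.528 and 0.509 beyond 20 and 50 points, 0.554 by female parents, 0.529 without CGs at 2% or less, 0.503 in the 3 libraries reaching 100 bases and 0.374 to 0.727 without 1 mouse. The mean difference of F1 from parents turned to 7.26 points when the reads of all CGs were added (exact permutation p = 0.0857), to 0.15 without MspI-site CGs (exact permutation p = 0.6), and was -0.533 to -0.144 without 1 mouse. Without the DBA-tag windows of the B6 male, 5640 of 157168 CGs had F1 mice outside all parents and the mid-parent test called 1 CG. Strain-differing CGs then numbered 450, with a median position of 0.518. Clusters and genes were not fitted without these windows. The cause of these changes was not tested, beyond fewer or more CGs entering. The labels carry no replicate numbers; sex, the block they allow, gave 0 calls for CGs, clusters and genes. Chosen after seeing the data were the settings on MspI sites, dispersion, libraries reaching 100 bases and female parents alone (planned only for the count of strain-differing CGs), leaving out mice for that count, and DBA-tag windows for strain-differing CGs. Depth (median 34 reads per CG in the DBA female) limits differences at single CGs.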
